A study of Homo sapiens with 6 samples.

Results

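The collagen genes COL5A1, COL5A2, COL4A1, COL4A2, COL1A1, COL6A1, COL6A2, COL12A1, COL7A1 and COL18A1, were followed in A549 cells, an established human lung adenocarcinoma line, after knockdown of the RNA helicase DDX17. The 10 were chosen as chains expressed in A549, out of 39 collagen genes listed in the count table and 29476 genes in all. The choice was made with earlier results of these data known. The levels of the 10 chains, and counts of how many changed, are therefore a description. All 10 passed the low-count filter. RNA-seq of polyadenylated RNA was available from 3 libraries of cells given a nontargeting siRNA (siCtrl) and 3 libraries of cells given a siRNA against DDX17 (siDDX17). Both groups are the same line, grown in MEM with serum and transfected with a Lipofectamine reagent. Each group received 1 siRNA duplex, so an effect of the duplex and an effect of losing DDX17 cannot be told apart. For RT-qPCR the cells were harvested at 48 h, and no time is stated for the RNA-seq cultures. One of the label fields calls the control a plasmid, whereas the methods describe siRNAs only.

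Collagens are secreted triple helices, each built of 3 chains. Fibrillar collagens such as types I and V form the fibrils of interstitial matrix, and type V helps to set fibril diameter. Type IV forms the network of basement membranes, in which COL4A1 and COL4A2 chains assemble together. COL6A1, COL6A2 and COL6A3 chains make the beaded filaments of type VI collagen. Type XII (COL12A1) lies on fibril surfaces, type VII (COL7A1) forms the anchoring fibrils below epithelia, and type XVIII (COL18A1) is a heparan sulfate proteoglycan of basement membranes and the source of endostatin. In lung most fibrillar collagen comes from fibroblasts, while epithelial cells contribute to the basement membrane.

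COL5A1 and COL4A1 rose the most of the 10 chains in siDDX17, 6.07-fold and 4.09-fold, while their trimer partners COL5A2 and COL4A2 rose 1.39-fold and 1.71-fold. COL18A1, COL6A1 and COL12A1 rose by smaller amounts, COL6A2, COL7A1 and COL1A1 did not pass the test, and 0 of the 10 fell. The count of 7 of 10 chains higher stands beside 24.5% of all 15615 tested genes higher and 24.3% lower (edgeR quasi-likelihood test, adjusted p under 0.05). The median log2 fold change was 0.37 over the 10 chains and 0.005 over all tested genes. The count and the median are descriptions, as the chains were chosen with earlier results of these data known. With a log2 fold change over 1 also required, 2 of the 10 chains were called, COL5A1 and COL4A1, beside 4.65% of all genes higher and 2.92% lower. By the limits of the study's methods, p under 0.01 and a fold change of 1.5, COL4A2 joined them, giving 3 of 10 beside 11.0% of all genes higher and 8.03% lower. In the same 7 chains that passed, all siDDX17 libraries lay above all siCtrl libraries, which held for 28.8% of all genes, while 27.7% lay lower without overlap.

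The deposited counts summed to 30658136 to 39182371 per library over the genes of the count table. DDX17 itself, the target, stood at 177, 184 and 206 CPM (read counts scaled to a common library size by the TMM method) in siCtrl 1, 2 and 3 and at 32.1, 30.8 and 30.4 CPM in siDDX17 1, 2 and 3. Its log2 fold change was -2.60 ± 0.07 (SE; adjusted p = 5.89e-11, edgeR). The first control library stood apart, with a chi-square per gene of 20.3 and 25.6 against the other two controls, whereas the other pairs within a group lay between 3.62 and 5.83. Without it, the same count of 7 chains passed the test upward and 0 downward. Scaling by library size alone, without TMM, moved the median log2 fold change over the tested genes by 0.122 and the share of higher genes among those that passed from 50.1% to 67.7%, and limma on log2(FPKM + 0.1) gave a shift of 0.118 and a share of 68.7%. The log2 fold changes of the 10 chains kept their signs under each scaling tried.

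**Figure D1:**
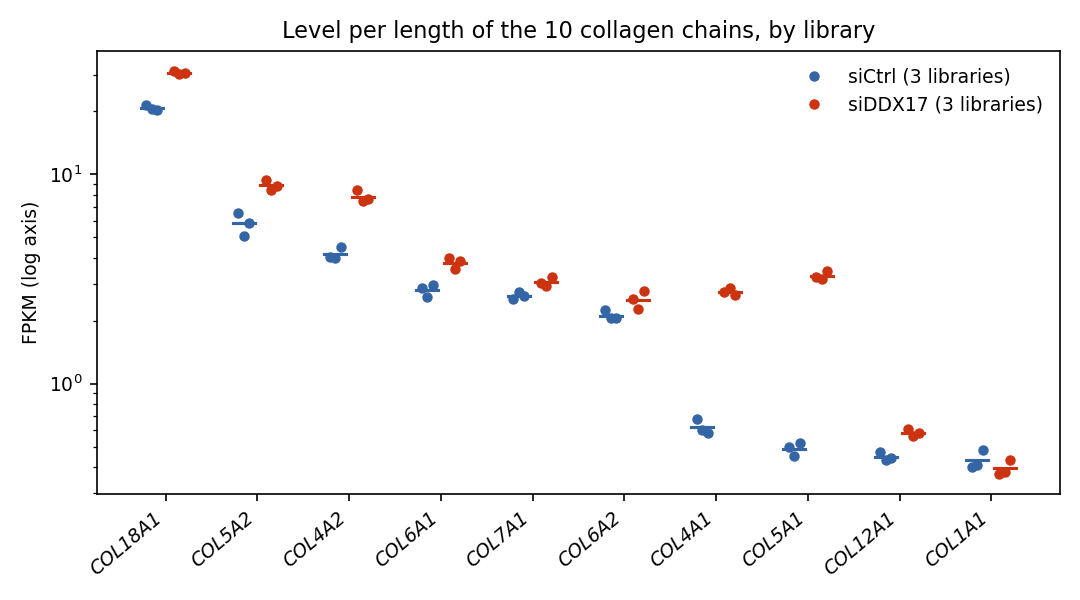
FPKM (vertical axis, log scale) of the 10 chains in the 3 siCtrl and 3 siDDX17 libraries, 1 point per library, with a line at each group's mean and chains ordered by their siCtrl mean. COL18A1 sits at the top in both groups, and COL5A1 and COL4A1 move from the lowest 4 chains in siCtrl to the middle of the order in siDDX17.

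Per length, COL18A1 was the highest of the 10 chains in siCtrl, at 20.8 ± 0.52 FPKM (SD, n = 3; the count per length and library size, as deposited). COL5A2 followed at 5.83 ± 0.75 FPKM and COL4A2 at 4.17 ± 0.29 FPKM. COL6A1 (2.80 ± 0.18 FPKM) and COL7A1 (2.64 ± 0.11 FPKM) overlapped between libraries and stood above COL6A2 (2.12 ± 0.12 FPKM). The 4 lowest chains were COL4A1 at 0.62 ± 0.05 FPKM, then COL5A1, COL12A1 and COL1A1 at 0.49, 0.447 and 0.43 FPKM, of which the last 3 overlapped between libraries. Expression alone did not define the list, since COL4A5 (4.76 FPKM) and COL4A6 (3.60 FPKM) were more abundant in siCtrl than most of the 10 chains and are not on it.

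In siDDX17 the order of levels changed in its middle. COL18A1 remained first at 30.7 ± 0.50 FPKM, and COL5A2 (8.87 ± 0.52 FPKM) and COL4A2 (7.83 ± 0.52 FPKM) now overlapped. COL5A1 reached 3.28 ± 0.14 FPKM, below COL6A1 at 3.79 ± 0.24 FPKM and overlapping COL7A1 at 3.07 ± 0.16 FPKM. COL4A1 reached 2.75 ± 0.11 FPKM and overlapped COL6A2 at 2.52 ± 0.25 FPKM, while COL12A1 (0.583 FPKM) and COL1A1 (0.393 FPKM) stayed lowest without overlapping each other.

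The FPKM of the 10 chains summed to 38.9 to 41.7 in the siCtrl libraries and to 61.9 to 65.6 in the siDDX17 libraries. Over all tested genes, the median log2 fold change on log2(FPKM + 0.1) was also 0.118 higher than with TMM. COL18A1 made up 51.6% of that sum on average in siCtrl and 48.1% in siDDX17. The share of COL5A1 went from 1.21% to 5.15% and that of COL4A1 from 1.54% to 4.32%. The shares of COL5A2 (14.4% and 13.9%) and COL4A2 (10.3% and 12.3%) stayed closer to their siCtrl values. COL1A1 held 1.07% of the sum in siCtrl and 0.618% in siDDX17, while its own mean FPKM went from 0.43 to 0.393. These shares are descriptions, as the chains were chosen on their levels.

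Type V collagen is usually a trimer of COL5A1 and COL5A2 chains. COL5A1 (ENSG00000130635.15; GRCh38 chr9:134641803-134844843, plus strand) was at 4.61, 4.33 and 4.86 CPM in siCtrl 1, 2 and 3 and at 27.7, 27.3 and 28.99 CPM in siDDX17 1, 2 and 3. The lowest siDDX17 library was far above the highest siCtrl library. The log2 fold change was 2.60 ± 0.08 (SE), adjusted p = 2.86e-10 (edgeR, Benjamini-Hochberg), which is place 21 from the top among the 15615 tested genes. The counts behind these values were 124 to 182 in siCtrl and 996 to 1117 in siDDX17.

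COL5A2 (ENSG00000204262.11; chr2:189031898-189225312, minus strand) was at 48.8, 39.4 and 44.2 CPM in siCtrl and at 65.3, 58.9 and 60.5 CPM in siDDX17. The groups did not overlap, and the first control library was the highest of the controls. The log2 fold change was 0.48 ± 0.08 (SE; adjusted p = 0.000178, edgeR), and without siCtrl 1 it was 0.54. COL5A3, another type V chain, had only 4 to 17 counts in siCtrl and 10 to 20 in siDDX17, and its log2 fold change of 0.48 ± 0.42 (SE) did not pass (adjusted p = 0.36, edgeR).

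The ratio of COL5A1 to COL5A2 within a library does not depend on how libraries are scaled. In FPKM it was 0.0761, 0.0888 and 0.0890 in siCtrl 1, 2 and 3 and 0.344, 0.377 and 0.390 in siDDX17 1, 2 and 3. The groups were fully separated. From counts, the mean log2 ratio was -3.26 ± 0.13 (SD) in siCtrl and -1.14 ± 0.09 (SD) in siDDX17, a difference of 2.12 ± 0.09 (SE), or 4.35-fold. An exact two-sided permutation test gave p = 0.1, the smallest value that 3 against 3 libraries allow, and 0.175 after Benjamini-Hochberg adjustment over the 7 ratios computed, so the design cannot reach 0.05 for any ratio.

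COL4A1 (ENSG00000187498.14; chr13:110148963-110307157, minus strand) was at 5.37, 4.96 and 4.67 CPM in siCtrl 1, 2 and 3 and at 20.3, 21.6 and 19.5 CPM in siDDX17 1, 2 and 3. The groups lay far apart relative to the spread within each. The log2 fold change was 2.03 ± 0.09 (SE; adjusted p = 2.89e-09, edgeR), at place 45 from the top. Its counts were 142 to 182 in siCtrl and 751 to 787 in siDDX17.

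COL4A2 (ENSG00000134871.17; chr13:110305812-110513209, plus strand) was at 27.1, 28.0 and 30.8 CPM in siCtrl and at 52.9, 47.4 and 47.1 CPM in siDDX17. The groups did not overlap. The log2 fold change was 0.78 ± 0.07 (SE; adjusted p = 1.53e-06, edgeR). The annotated spans of COL4A1 and COL4A2 overlap on opposite strands, and the libraries were stranded but the use of strand in counting is not given in the sources used here, so reads in the shared stretch are of uncertain origin.

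The FPKM ratio of COL4A1 to COL4A2 was 0.169, 0.151 and 0.129 in siCtrl 1, 2 and 3 and 0.325, 0.385 and 0.349 in siDDX17 1, 2 and 3. Every siDDX17 library exceeded every siCtrl library. The difference in mean log2 count ratio was 1.25 ± 0.13 (SE), or 2.39-fold (exact two-sided permutation test, p = 0.1, the smallest possible; adjusted 0.175). Without siCtrl 1 the difference was 1.35. COL4A1 was the lower chain of the pair in every library, and the gap between the chains was smaller in siDDX17.

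**Figure D2:**
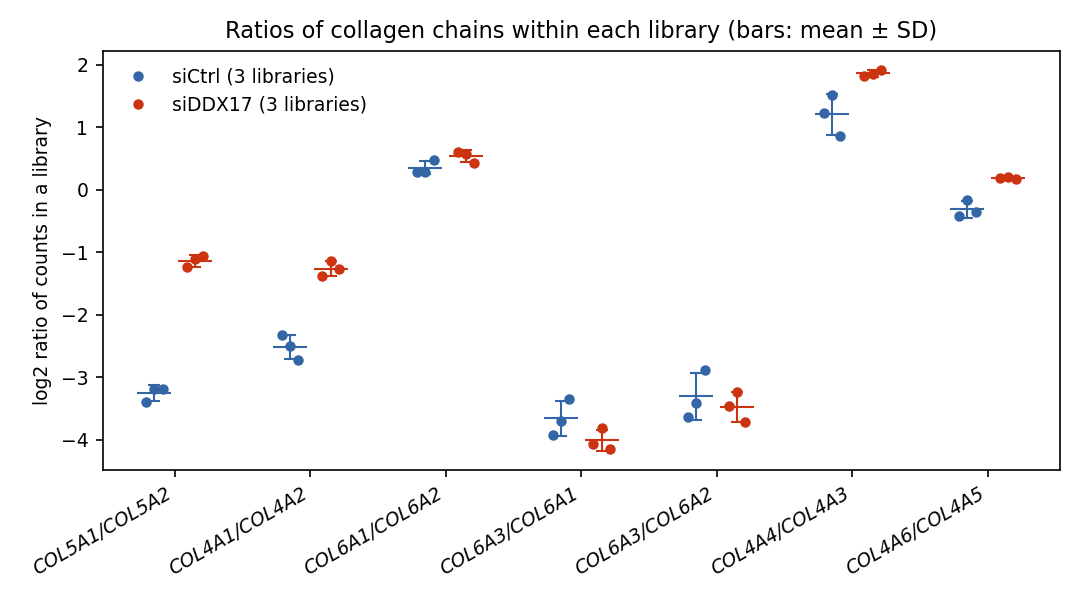
Log2 ratio of counts between chains of one collagen type (vertical axis) in each library, 1 point per library, with the mean and SD of each group of 3. The COL5A1/COL5A2 and COL4A1/COL4A2 ratios are separated between siCtrl and siDDX17 by 2.12 and 1.25 on the log2 scale, while the ratios within type VI collagen overlap.

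COL4A1 and COL4A2 are arranged head to head on chromosome 13, and their promoter is printed to show how closely the pair with unequal changes is joined. In RefSeq on GRCh38.p14 the start sites lie 127 bases apart, at 110307157 on the minus strand and 110307284 on the plus strand. Windows from 250 bases before to 50 after each start share 226 bases. Capitals mark CCAAT, the letters of the CCAAT box, which were searched with their complement ATTGG. The COL4A2 window is chr13:110307034-110307333, plus strand, and the COL5A1 window, shown for contrast, is chr9:134641553-134641852, plus strand.
COL4A2: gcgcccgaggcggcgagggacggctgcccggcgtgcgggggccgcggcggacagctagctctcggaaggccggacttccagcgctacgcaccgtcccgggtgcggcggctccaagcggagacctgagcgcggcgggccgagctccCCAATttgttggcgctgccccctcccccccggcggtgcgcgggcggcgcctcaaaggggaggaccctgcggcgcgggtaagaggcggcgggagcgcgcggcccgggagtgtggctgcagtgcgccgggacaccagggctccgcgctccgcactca
COL5A1: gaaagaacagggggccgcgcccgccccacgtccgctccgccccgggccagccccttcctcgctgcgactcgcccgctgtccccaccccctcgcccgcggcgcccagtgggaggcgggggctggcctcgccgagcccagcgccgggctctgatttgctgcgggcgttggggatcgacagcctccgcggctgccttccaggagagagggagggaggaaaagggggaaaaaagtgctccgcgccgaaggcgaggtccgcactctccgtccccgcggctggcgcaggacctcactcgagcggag

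The 1 CCAAT in the window of COL4A2 is also the 1 in the window of COL4A1, read from the other strand. Of the 7 chains matched to a RefSeq window (9 windows, with alternative starts of COL5A1 and COL18A1), these 2 held CCAAT, beside 34.6% of all 35116 windows. All 7 held GGGCGG or its complement CCGCCC, beside 45.0% of all windows, and the chains were COL5A1, COL4A1, COL4A2, COL6A2, COL12A1, COL7A1 and COL18A1. TATAAA or its complement TTTATA was in a window of 3 chains, COL6A2, COL7A1 and COL18A1, beside 11.5% of all windows. COL18A1 held these letters in only 1 of its windows. A chain was counted if any of its windows held the letters, whereas the shares are of single windows. The COL4A1 and COL4A2 windows were 76.7% and 77.7% G and C. A match is a description of letters and not a site of binding.

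The other type IV genes form head to head pairs as well, COL4A3 with COL4A4 and COL4A5 with COL4A6. Their start sites lie 419 and 380 bases apart, taking the nearer start of COL4A6. An alternative start of COL4A6 lies 1416 bases from that of COL4A5, and those windows share 0 bases. The ratios of these pairs were added after the counts were seen. The FPKM ratio of COL4A4 to COL4A3 was 1.95, 2.31 and 1.48 in siCtrl and 2.90, 2.93 and 3.11 in siDDX17, a difference of 0.66 ± 0.19 (SE) in log2 count ratio (exact permutation p = 0.1, adjusted 0.175). That of COL4A6 to COL4A5 was 0.707, 0.843 and 0.737 in siCtrl and 1.08, 1.09 and 1.06 in siDDX17, a difference of 0.50 ± 0.08 (SE) with the same p. In all 3 head to head pairs the ratio was separated between the groups, and the chain on the minus strand stood higher relative to its partner in siDDX17.

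COL6A1 (ENSG00000142156.14; chr21:45981770-46005050, plus strand) was at 12.96, 12.3 and 13.7 CPM in siCtrl 1, 2 and 3 and at 16.9, 15.1 and 16.1 CPM in siDDX17 1, 2 and 3. The groups did not overlap, and the log2 fold change was 0.30 ± 0.08 (SE; adjusted p = 0.00719, edgeR). COL6A2 (ENSG00000142173.14; chr21:46098112-46132848, plus strand) lies 93061 bases downstream of COL6A1. It was at 10.6, 10.1 and 9.85 CPM in siCtrl and at 11.1, 10.1 and 11.99 CPM in siDDX17, with overlapping groups, and its log2 fold change of 0.12 ± 0.09 (SE) did not pass (adjusted p = 0.286, edgeR).

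Type VI collagen thus gave a call for 1 chain of its pair, yet the ratio itself was not shown to differ. The FPKM ratio of COL6A1 to COL6A2 was 1.27, 1.27 and 1.44 in siCtrl and 1.58, 1.55 and 1.39 in siDDX17. Values overlapped between the groups, with a difference of 0.19 ± 0.08 (SE) in log2 count ratio (exact permutation p = 0.2, adjusted 0.233). COL6A3, the third chain of the usual trimer, was scarce, with 27 to 50 counts per siCtrl library and 35 to 39 per siDDX17 library. Its FPKM was 0.0245 to 0.0373 of that of COL6A1 in siCtrl and 0.0208 to 0.0284 in siDDX17, and its log2 fold change was -0.08 ± 0.23 (SE; adjusted p = 0.796, edgeR). The difference in log2 count ratio was -0.35 for COL6A3 to COL6A1 (exact permutation p = 0.2) and -0.16 for COL6A3 to COL6A2 (exact permutation p = 0.6). The last had a positive sign, 0.05, without siCtrl 3.

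COL18A1 (ENSG00000182871.14; chr21:45405165-45513720, plus strand) was at 156, 157 and 152 CPM in siCtrl 1, 2 and 3 and at 213, 209 and 205 CPM in siDDX17 1, 2 and 3. The spread within each group was small beside the step between them. The log2 fold change was 0.43 ± 0.05 (SE; adjusted p = 1.67e-05, edgeR), on counts of 4495 to 8206.

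COL12A1 (ENSG00000111799.20; chr6:75084326-75206267, minus strand) was at 6.02, 5.77 and 5.82 CPM in siCtrl and at 7.37, 6.91 and 6.88 CPM in siDDX17. The groups did not overlap, and the log2 fold change was 0.26 ± 0.10 (SE; adjusted p = 0.0416, edgeR). This call was lost with DESeq2 (adjusted p = 0.104), with no low-count filter (adjusted p = 0.0953) and without any 1 library other than siCtrl 1, where the adjusted p from edgeR lay between 0.0714 and 0.14.

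COL7A1 (ENSG00000114270.15; chr3:48564073-48595329, minus strand) was at 25.1, 28.6 and 26.6 CPM in siCtrl and at 27.9, 27.5 and 29.8 CPM in siDDX17. The groups overlapped, and the log2 fold change was 0.09 ± 0.07 (SE; adjusted p = 0.332, edgeR). It passed when libraries were scaled by size alone (0.21, adjusted p = 0.0252, edgeR), a setting under which the median gene also shifted upward by 0.122.

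COL1A1 (ENSG00000108821.13; chr17:50184101-50201632, minus strand), a chain of type I collagen, was at 2.86, 3.11 and 3.55 CPM in siCtrl and at 2.46, 2.58 and 2.88 CPM in siDDX17. The highest siDDX17 library lay just above the lowest siCtrl library. The log2 fold change was -0.27 ± 0.15 (SE; adjusted p = 0.149, edgeR), on 89 to 133 counts per library. COL1A2, the other chain of type I collagen, was not analysed here, so the pair could not be set side by side.

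**Figure D3:**
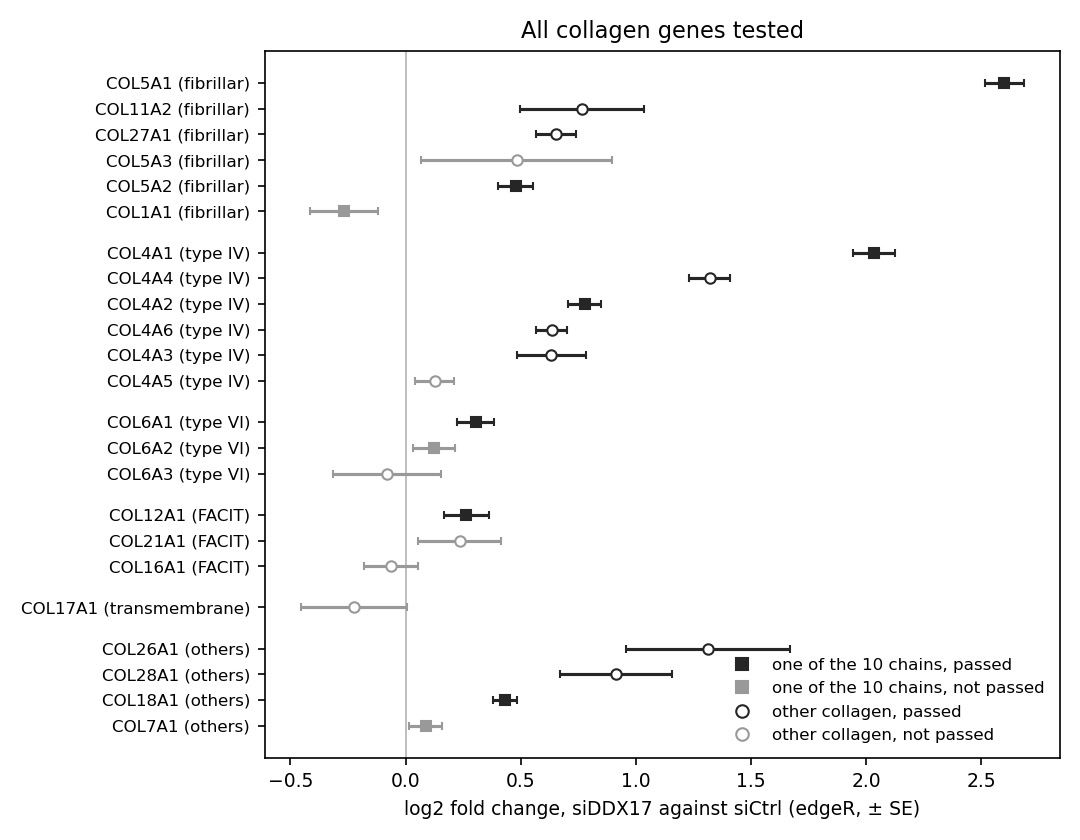
Log2 fold change, siDDX17 against siCtrl (horizontal axis, edgeR, with SE), of all 23 collagen genes tested, grouped by type, with the 10 chains as filled squares and the other collagens as open circles, dark where the adjusted p was under 0.05. COL5A1 at 2.60 and COL4A1 at 2.03 lie to the right of the other collagens, and none of the genes to the left of 0 passed.

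Across the whole collagen family, 39 of 44 genes searched were in the count table and 23 had enough reads to be tested. Of these, 14 rose and 0 fell, with a median log2 fold change of 0.48. Among the 13 tested outside the 10 chains, 7 rose and 0 fell, with a median of 0.63, beside the 24.5% and 24.3% of all genes. Within type IV, 5 of 6 genes rose. The log2 fold changes were 1.32 for COL4A4, 0.63 for COL4A3 and 0.63 for COL4A6, whereas COL4A5 had 0.13 (adjusted p = 0.234, edgeR). The fibrillar COL27A1 (0.65) and COL11A2 (0.77) rose, as did COL26A1 (1.31) and COL28A1 (0.91), although COL26A1 rested on 5 to 34 counts and COL11A2 on 16 to 48. COL21A1 (0.23), COL16A1 (-0.06) and COL17A1 (-0.22) did not pass, and COL16A1 and COL6A3 had positive signs (0.06 and 0.04) with library size only.

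The miR-29 family is known to repress many collagen mRNAs through sites in their 3' UTRs, and its seed match was therefore located in these genes. The mature sequences from RefSeq (GRCh38.p14) are shown with the seed, bases 2 to 8, in capitals. All 3 share it.
hsa-miR-29a-3p: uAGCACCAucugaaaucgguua
hsa-miR-29b-3p: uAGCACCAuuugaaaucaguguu
hsa-miR-29c-3p: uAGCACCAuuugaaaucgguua

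The complementary 7 letters, TGGTGCT, were searched in the 3' UTR of the canonical transcript in GENCODE release 44 on GRCh38. The matches of the type V and type IV chains are shown in capitals within 29 bases of the transcript strand, since these are the pairs whose ratios were separated. COL5A1 holds 4, at chr9:134843327-134843355, chr9:134843367-134843395, chr9:134843701-134843729 and chr9:134844082-134844110, plus strand. COL5A2 holds 1 at chr2:189032867-189032895, minus strand. COL4A1 holds 1 at chr13:110150320-110150348, minus strand, and COL4A2 holds 1 at chr13:110512204-110512232, plus strand.
COL5A1 site 1: taactcaatgaaaatTGGTGCTtattttt
COL5A1 site 2: cttgtggctctcttgTGGTGCTatctatc
COL5A1 site 3: gttcctgaatgtttgTGGTGCTaatttct
COL5A1 site 4: gagcctgcggggctcTGGTGCTgtccccg
COL5A2 site: tttttcctttaatgaTGGTGCTaaaattc
COL4A1 site: gctaatgtcacaacaTGGTGCTacttctt
COL4A2 site: caggaagggccatttTGGTGCTtattctt

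TGGTGCT was present in 7 of the 10 chains, beside 16.5% of the 12986 tested genes with a 3' UTR of at least 30 bases. COL7A1 held 2 matches, COL1A1 and COL6A2 held 1 each, and COL6A1, COL12A1 and COL18A1 held 0. Of the chains with a match, COL5A1, COL5A2, COL4A1 and COL4A2 rose and COL1A1, COL6A2 and COL7A1 did not pass, and the 3 without, COL6A1, COL12A1 and COL18A1, rose. Among type IV and V chains outside the 10, COL4A4 (3 matches), COL4A3 (2) and COL4A6 (1) rose. COL5A3 (3 matches) and COL4A5 (1) did not pass. Of the other tested collagens, COL27A1 (1 match) rose, and COL21A1 (2), COL6A3 (1) and COL16A1 (1) did not pass. COL11A2, COL26A1 and COL28A1 held 0 matches and rose, and COL17A1 held 0 and did not pass. Over all genes with a match the median log2 fold change was 0.01 and 27.7% rose, beside -0.01 and 25.5% of genes without. Genes with a match also had longer 3' UTRs, with a median of 2931 against 1092 bases. The levels of mature miR-29 were not measured in these libraries of polyadenylated RNA.

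Seed matches were also searched for 1 strand of each siRNA duplex, in the same 3' UTRs. The strands differ, antisense for DDX17 and sense for the control, and the other strand of each duplex was not searched. TATTGCT, which pairs with the seed of the antisense strand in the DDX17 duplex, was in 14.5% of the 12986 genes and in 0 of the 10. TCGGAGA, which pairs with the seed of the sense strand in the control duplex, was in 2.13% of genes and in 0 of the 10. Genes holding TCGGAGA had a median log2 fold change of 0.23, with 48.0% higher and 12.3% lower, beside -0.01, 25.4% and 26.9% in genes without it. The 277 genes with the match also had longer 3' UTRs, with a median of 2778 against 1287 bases. The part of this length difference was not tested.

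Collagen chains are hydroxylated and folded in the endoplasmic reticulum, trimmed outside the cell and crosslinked. Of 30 tested genes for these steps, 13 rose and 4 fell, with a median log2 fold change of 0.10, beside 24.5% of all tested genes higher and 24.3% lower. The prolyl 4-hydroxylase subunit P4HA3 rose by 1.26 on the log2 scale, from 6.92 to 18.1 FPKM in the group means. The prolyl 3-hydroxylase P3H2 rose by 0.79 and P4HA2 by 0.58. The 4 that fell were the lysyl hydroxylase PLOD2 (-0.33), the P3H4 scaffold of lysyl hydroxylation (-0.29), the procollagen processing enhancer PCOLCE (-0.69) and the lysyl oxidase LOX (-0.83). The last 2 are named because the count is small, chosen after their values were seen, and LOX stood at only 84 to 122 counts in siCtrl. PLOD2 (adjusted p = 0.121, edgeR) and P3H4 (adjusted p = 0.0848) lost their calls with library size only, and in both limma fits on FPKM.

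Of 15 tested basement membrane genes other than collagens, 4 rose and 3 fell, near the 24.5% and 24.3% of all genes, with a median log2 fold change of 0.08. The laminin chains LAMA3 (0.45) and LAMB1 (0.18) rose, as did LAMA4 (1.84) and SPARC (1.12), a collagen-binding matricellular protein, which are named after their values were seen and had 44 to 58 and 28 to 43 counts in siCtrl. The laminin chains LAMA5 (-0.52) and LAMB2 (-0.19) were among those that fell, of which LAMB2 lost its call with library size only (adjusted p = 0.462, edgeR), upper quartile scaling (adjusted p = 0.0673) and both limma fits on FPKM. Perlecan (HSPG2, 0.03), the type IV binding linker NID1 (0.08) and the common laminin chain LAMC1 (0.07) did not pass.

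Among 16 tested collagen receptors, proteases and inhibitors, 6 rose and 4 fell, beside the same 24.5% and 24.3%, with a median log2 fold change of 0.19. The endocytic collagen receptor MRC2 (0.70), the membrane protease MMP15 (0.48) and the receptor kinase DDR1 (0.36) rose. The collagen-binding integrin chain ITGA2 (-0.82) and the protease inhibitor TIMP1 (-0.47) fell. So did MMP9 (-0.80) and the collagenolytic cathepsin CTSK (-0.89), both named after their values were seen. MMP9 and CTSK lay below the mean of 3 log2 CPM that the naming rule requires. On log2(FPKM + 1) their changes were smaller, -0.16 for MMP9 and -0.37 for CTSK (limma).

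**Figure D4:**
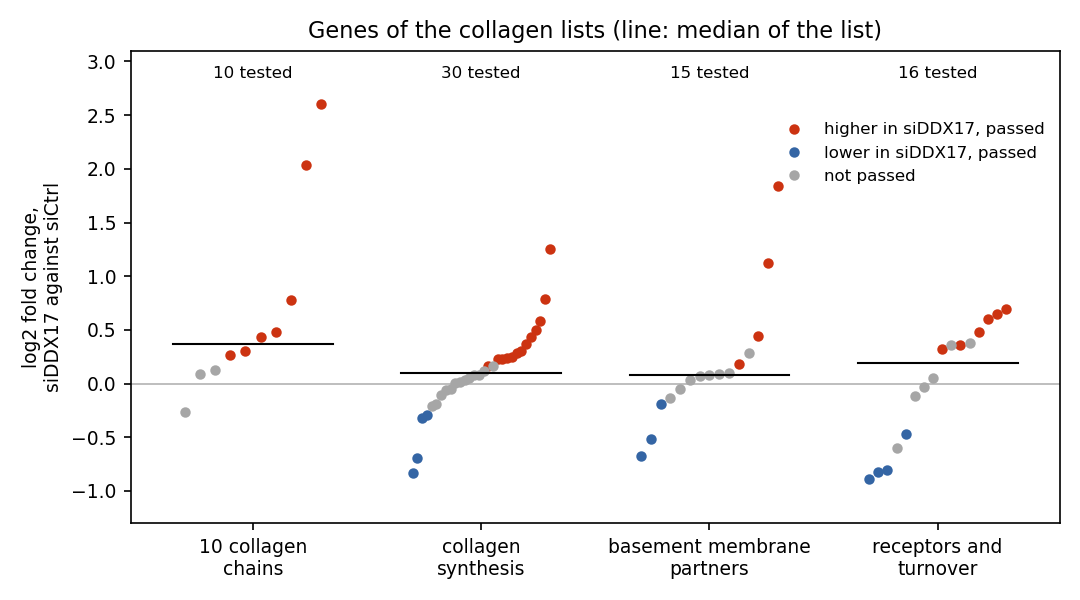
Log2 fold change, siDDX17 against siCtrl (vertical axis, edgeR), of each tested gene of the 10 collagen chains, collagen synthesis, basement membrane partners, and receptors and turnover, 1 point per gene, with a line at each list's median and colours for genes that passed at an adjusted p under 0.05. Medians are 0.37, 0.10, 0.08 and 0.19, and genes passed in both directions in each list but the 10 chains.

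In bulk RNA, fewer cells of a type and less RNA per cell cannot be told apart. All 8 epithelial markers were tested, and their summed level was 8137 to 8933 CPM in siCtrl and 6585 to 7106 CPM in siDDX17. KRT7, KRT8, KRT18 and KRT19 fell, EPCAM, MUC1 and CLDN7 rose, and 1 of the 8 did not pass. KRT18 lost its call under library size only (adjusted p = 0.344, edgeR), upper quartile scaling (adjusted p = 0.0807) and both limma fits on FPKM. KRT19 lost its call in both limma fits (adjusted p = 0.0559 and 0.0541). Of 10 fibroblast markers, 2 were tested, and the summed level was 11.9 to 15.7 CPM in siCtrl and 28.4 to 32.8 CPM in siDDX17. Most of that was ACTA2, smooth muscle actin, which rose by 1.31, while THY1 had 0.27 and did not pass. COL3A1, DCN, LUM, PDGFRA, FAP and POSTN, which define fibroblasts, had under 10 counts in every library, and PDGFRB had 1 to 5 counts in siCtrl and 3 to 12 in siDDX17. The endothelial markers summed to at most 0.443 CPM, each under 10 counts. The part of these shifts in the collagen values was not tested.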

How the data were processed

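Polyadenylated RNA of A549 cells was sequenced in stranded libraries, 3 siCtrl and 3 siDDX17. The authors mapped trimmed reads to GRCh38 with TopHat2 and deposited raw counts of reads per gene per library. A second table the authors deposited holds FPKM, normalized for gene length and library size. The counting program, annotation release and use of strand are not given in the sources used here. Genes were matched by Ensembl identifier, 29476 in the count table and 29242 in the FPKM table.

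Counts were scaled with TMM, filtered with filterByExpr (15615 genes kept) and tested with the quasi-likelihood test of edgeR 4.0.16 in R 4.3.3, with Benjamini-Hochberg adjustment over all tested genes. A gene passed at an adjusted p under 0.05. SE is the log2 fold change divided by the square root of F. FPKM served for levels and ratios between genes. Chain ratios were compared with exact two-sided permutation tests over libraries. The replicates are described as biological, and p-values measure the spread between these libraries. Filters on low counts limit which collagens were tested, and low counts widen the error of the scarce ones.

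Alternatives were scaling by RLE, by upper quartile or by library size only, DESeq2 1.42.0, no filter, at least 10 counts in every library, a replicate block, limma 3.58.1 on log2(FPKM + 1) and log2(FPKM + 0.1), and each library left out. On simulated counts for 15615 genes with 200 changed, the edgeR test recovered 186 (93%) with 1 false call. The simulation used a common dispersion for all genes, and far fewer changed than the 3819 higher and 3798 lower in the data. Its planted changes were all larger than those of COL5A2, COL4A2, COL18A1, COL6A1 and COL12A1, so recovery of such small changes was not tested. All 10 chains are named, with every other tested collagen, and per list the 3 genes in each direction with the largest change among those that passed with a mean of at least 3 log2 CPM. Of the genes this rule names, 1 is not reported here. The members and lists were chosen with earlier results of these data known. Gene spans and 3' UTRs came from GENCODE release 44 on GRCh38, and promoters and miRNAs from RefSeq. Protein sequences were not used here.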

Additional observations from a re-analysis of the deposited data

How the results depend on the processing

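COL5A1, COL4A1, COL5A2, COL4A2, COL6A1 and COL18A1 kept their direction and their call under each scaling, filter, tool and left-out library tried, with the largest adjusted p over these being 0.0405, for COL6A1 without 1 library (edgeR). The stricter limits lower counts by construction. With a log2 fold change over 1 required, 4.65% of all tested genes were higher and 2.92% lower. By this limit 2 of the 10 chains and 4 of 23 collagens rose. So did 1 of 30 collagen synthesis, 2 of 15 basement membrane and 0 of 16 receptor and turnover genes, and 0 genes of these lists fell. With p under 0.01 and a fold change of 1.5, 11.0% of all tested genes were higher and 8.03% lower. By these limits 3 of the 10 chains and 9 of 23 collagens rose. Of collagen synthesis, basement membrane, and receptor and turnover genes, 2 of 30, 2 of 15 and 2 of 16 were higher. In the same order, 2, 1 and 3 were lower. Library size only and both limma fits on FPKM gave 2 lower collagen synthesis genes in place of 4, PLOD2 and P3H4 no longer passing as the median of all genes moved upward. Leaving out 1 library gave 6 to 7 higher chains and 12 to 14 higher collagens, 10 to 14 higher and 3 to 4 lower collagen synthesis genes, 3 to 5 and 2 to 4 basement membrane genes, and 5 to 6 and 3 to 5 receptor and turnover genes. Over all genes these fits gave 3189 to 4220 higher and 3101 to 4312 lower, of 15837 to 15996 tested.

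The COL6A3/COL6A2 difference turned from -0.16 to 0.0489 without siCtrl 3 and reached -0.324 without siCtrl 1. The COL5A1/COL5A2 difference stayed between 2.05 and 2.17 and COL4A1/COL4A2 between 1.15 and 1.35. Same-numbered libraries did not deviate together (r = 0.00698, 0.0407 and -0.0564). No pairing by number was seen, although 3 libraries per group cannot show that none was made. With the replicate block 6 chains and 13 collagens rose, COL12A1 losing its call (adjusted p = 0.058, edgeR), and 0 fell. Of all 15615 tested genes, 3743 were higher and 3738 lower with this block. Low counts widen the error of COL5A3, COL26A1, COL11A2, COL17A1 and COL6A3, among others.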
